A study of Mus musculus with 24 samples.

Results

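The 10 genes described here are widely used to mark or define stem cells and were followed in cultured mouse ovarian surface epithelial cells. Of them, 5 encode proteins used as surface markers of stem and progenitor cells (Cd44, Cd24a, Prom1, Kit and Lgr5) and 5 encode transcription factors of pluripotency and reprogramming (Klf4, Myc, Sox2, Nanog and Pou5f1). They were taken by gene symbol from the expression tables, which hold 35687 or 35688 genes, and all 10 were listed in each table. Of the 10, 4 were expressed at a level that could be tested in every experiment (Cd44, Klf4, Myc and Nanog), 4 were not expressed in any of them (Prom1, Kit, Sox2 and Pou5f1), and 2 were close to the limit in 1 experiment and not expressed in the others (Cd24a and Lgr5). Not expressed means here that every library of a table was under 1 scaled TPM, the authors' length-corrected unit of transcript abundance with a further factor per library.

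Pou5f1 (the gene of OCT4), Sox2 and Nanog form the core circuit that keeps embryonic stem cells pluripotent, and they bind one another's genes. Klf4 and Myc complete, with Pou5f1 and Sox2, the classical reprogramming cocktail, but both are also used by many ordinary epithelial and dividing cells. The surface markers come from adult tissues and tumours, where cells that carry them have been sorted and tested for self-renewal, and in the mouse ovary Lgr5 is known to mark cells of the surface epithelium.

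The study sequenced poly(A) RNA of 24 libraries in 8 groups of 3, in 3 experiments that were normalized separately, so levels are not compared between experiments. In the first experiment cells of the line m1102 were spheroids after TGFB1, untreated spheroids, monolayers with TGFB1 or untreated monolayers. TGFB1 (transforming growth factor beta 1) was used at 10 ng/mL, and spheroid cells received it for 4 days before they were moved to low-attachment plates. Monolayers were not moved. Where TGFB1 spheroids or their TGFB1 effects are set against those of monolayers, culture form and the timing of TGFB1 cannot be told apart. In the second experiment m1102 monolayers carried a lentiviral Snail construct (Snail is the product of Snai1, a repressor active in epithelial-mesenchymal transition) or the WPI vector control. In the third experiment cells of the line mOSE_BRCA1_fl, harvested from BRCA fl/fl mice, had received an adenovirus with Cre recombinase (labelled BRCA1_ko) or with GFP (labelled BRCA1_wt), so both groups descend from cells with floxed alleles. All cells grew in a medium with serum, insulin-transferrin supplement and EGF. The titles call the monolayer libraries of the first experiment re-analyzed and those of the spheroids not, so culture form and the origin of the libraries cannot be told apart. The labels of untreated monolayers 1 and 2 cite one and the same earlier sample. Whether libraries of one group came from separate cultures is not labelled, and p-values measure the spread between these libraries only. These are bulk samples, in which fewer cells of a type and less RNA per cell cannot be told apart.

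The labels were checked against the genes they name. Snai1 had 234, 195 and 193 scaled TPM in Snail libraries, against 13.7, 10.1 and 9.81 scaled TPM in WPI libraries. Brca1 had 5.34, 11.1 and 4.09 scaled TPM in BRCA1_ko libraries, against 4.27, 12.3 and 3.66 scaled TPM in BRCA1_wt libraries, and the groups overlapped. The labels do not name the deleted exons, and a value over the whole gene need not show their loss, so it does not check these labels. Of 16 markers of ovarian surface epithelium, 13 reached the detection limit in the spheroid and Snail tables and 14 in the BRCA1 table, while Lhx9 and Cdh1 were under 1 in every library and Krt8 was under 1 in the spheroid and Snail tables. Of the leukocyte and mast cell markers 10 of 13 were under 1 in every spheroid and monolayer library, 10 of 12 in the Snail table and 9 of 12 in the BRCA1 table, with the pan-leukocyte marker Ptprc among them each time. The summed level of that list, which rests on the few markers that were detected, was 21.9 to 71.9, 54.9 to 72.7 and 10.01 to 28.6 scaled TPM over the libraries of these tables. Also under 1 in every library were 13 of 14 germ cell markers in the Snail and BRCA1 tables and 11 of 14 in the spheroid table. The exception in the Snail table was Ddx4, since the summed germ cell markers there were 103 to 167 in Snail libraries and 81.3 to 170 in WPI libraries. Summed scaled TPM per library was 955433 to 1166749 for spheroids and monolayers, 983449 to 1021026 for Snail and WPI, and 796668 to 1810667 for the BRCA1 libraries, where the BRCA1_wt libraries were the uneven ones.

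Cd44 (ENSMUSG00000005087, chromosome 2, 102811141 to 102901665, minus strand, GRCm38) encodes the receptor for the matrix sugar hyaluronan and is the member that was called in the most comparisons. Klf4 (ENSMUSG00000003032, chromosome 4, 55527143 to 55532466, minus strand) shares a call with it in the BRCA1 experiment, in the opposite direction. The promoters of both are shown and were searched for motifs that include those of SMAD proteins, which act in TGFB1 signalling, and of Snail. Klf4 was called in no TGFB1 or Snail comparison, and Cd44 was not called with Snail. Each runs from 250 bases before to 50 bases after the start of the gene, from RefSeq on GRCm38.p6, chr2:102901616-102901915 and chr4:55532426-55532725, both on the minus strand and written 5′ to 3′. Capitals mark the E-box CACGTG, which MYC binds with MAX.
Cd44: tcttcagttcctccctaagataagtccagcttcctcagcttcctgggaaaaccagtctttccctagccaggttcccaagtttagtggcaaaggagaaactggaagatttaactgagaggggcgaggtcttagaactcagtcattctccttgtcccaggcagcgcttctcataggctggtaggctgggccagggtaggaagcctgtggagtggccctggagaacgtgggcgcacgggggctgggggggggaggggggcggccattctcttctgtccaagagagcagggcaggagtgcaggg
Klf4: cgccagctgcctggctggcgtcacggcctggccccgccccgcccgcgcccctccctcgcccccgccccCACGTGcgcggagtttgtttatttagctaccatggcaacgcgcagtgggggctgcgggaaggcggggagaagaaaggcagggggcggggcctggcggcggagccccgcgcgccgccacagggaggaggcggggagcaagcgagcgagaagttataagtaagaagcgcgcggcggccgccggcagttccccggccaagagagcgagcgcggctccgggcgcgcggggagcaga
The Cd44 window has 58% G and C and held no match to any of 4 motifs searched on both strands: CACGTG, the Snail E-box CAGGTG, the AP-1 site TGANTCA and the SMAD palindrome GTCTAGAC. The Klf4 window has 74.3% G and C and held 1 match, a CACGTG that begins at base 69 of the window, 182 bases before the start. Among 32851 mouse promoter windows of this length, 7.15% held CACGTG, 20.2% held CAGGTG or its reverse complement, 7.81% held TGANTCA and 0.213% held GTCTAGAC. Of the other members with a promoter, Nanog and Prom1 held the Snail E-box and Prom1 the AP-1 site, and no other match was found. A match is a description of the letters and does not show a bound site. Only whole motifs were searched, so a missing match does not show that no such factor binds.

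Cd44 was highest in spheroids after TGFB1. It had 98.4, 198 and 132 scaled TPM in TGFB1 spheroids, 29.7, 24.0 and 14.2 in untreated spheroids, 27.8, 7.44 and 6.50 in TGFB1 monolayers, and 2.30, 1.33 and 2.59 in untreated monolayers. All TGFB1 spheroids stood above all other libraries, all untreated monolayers stood below, and untreated spheroids overlapped with TGFB1 monolayers. Group means were 143 ± 50.6, 22.6 ± 7.85, 13.9 ± 12.01 and 2.07 ± 0.66 scaled TPM in the same order (SD, n = 3 libraries per group).

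The 4 pairwise comparisons and the interaction were tested with limma on log2(scaled TPM + 1), a scale on which changes of low genes are understated. Cd44 was higher in untreated spheroids than in untreated monolayers by 2.91 ± 0.47 (log2 fold change ± SE, adjusted p = 0.000379) and higher in TGFB1 spheroids than in TGFB1 monolayers by 3.50 ± 0.47 (adjusted p = 0.000111). With TGFB1 it was higher by 2.60 ± 0.47 in spheroids (adjusted p = 0.00188) and by 2.01 ± 0.47 in monolayers (adjusted p = 0.0151). The difference between the TGFB1 effects, spheroids minus monolayers, was 0.59 ± 0.67 (adjusted p = 0.600), so a difference between the culture forms in the response of Cd44 was not detected. Among monolayers the call rests in part on single libraries. It was lost without untreated monolayer 2 (1.83, adjusted p = 0.0625), and without TGFB1 monolayer 1, the highest library of its group, it was kept at 1.40 (adjusted p = 0.0303).

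These comparisons called many genes, so the members are read against that background. Between untreated spheroids and monolayers 55.2% of 13509 genes tested were called, 27.6% higher and 27.7% lower, and 3 of the 4 tested members were among them (Cd44, Myc and Nanog). TGFB1 in spheroids called 35.6% of genes, 18.8% higher and 16.8% lower, and 2 members (Cd44 and Nanog). TGFB1 in monolayers called 16.9%, 9.12% higher and 7.79% lower, and 1 member (Cd44). Under TGFB1, spheroids against monolayers called 51.9%, 25.3% higher and 26.5% lower, and 1 member (Cd44). The interaction called 15.8%, 8.72% higher and 7.11% lower, and 1 member (Myc). With 4 members tested, these counts are read as no result about the set of genes. When libraries were scaled to equal sums, the calls shifted towards lower: 1592 higher and 3746 lower for TGFB1 in spheroids, 2428 and 4888 for spheroids against monolayers under TGFB1, and 732 and 1903 for the interaction, with medians over all genes of -0.16, -0.15 and -0.21 log2 units.

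**Figure D1:**
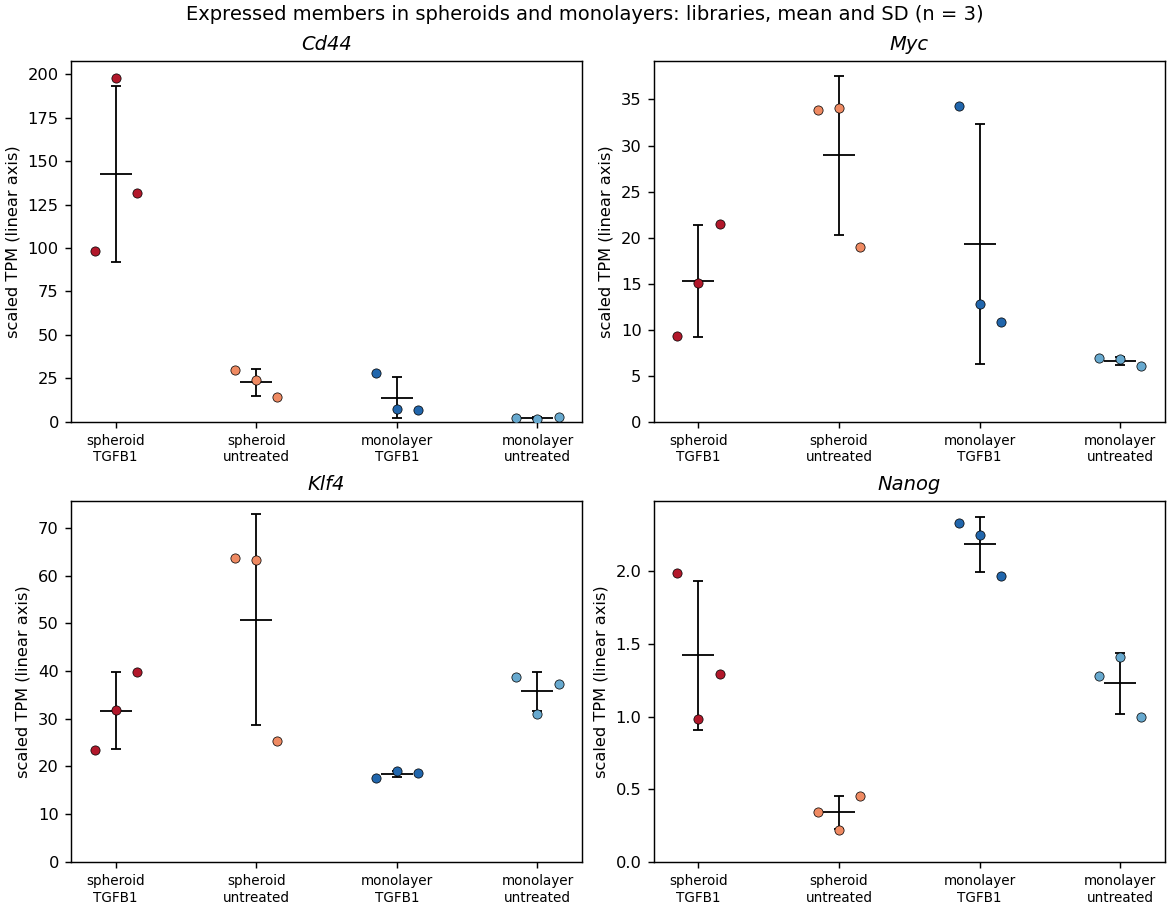
Scaled TPM of Cd44, Myc, Klf4 and Nanog (linear axes) in TGFB1 spheroids, untreated spheroids, TGFB1 monolayers and untreated monolayers. Points are libraries, long ticks are group means and error bars are SD (n = 3); Cd44 is highest in the 3 TGFB1 spheroids (98.4 to 198) and Nanog lowest in the 3 untreated spheroids (0.222 to 0.451).

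In the Snail experiment Cd44 had 2.22, 2.92 and 4.97 scaled TPM in Snail libraries, against 5.18, 8.66 and 4.07 scaled TPM in WPI libraries. The groups overlapped, with 2 of 3 Snail libraries below all WPI libraries. The log2 fold change was -0.67 ± 0.29 (limma, adjusted p = 0.343). Among mOSE_BRCA1_fl libraries Cd44 had 2.45, 2.17 and 1.82 scaled TPM in BRCA1_ko libraries, against 16.5, 41.5 and 11.4 scaled TPM in BRCA1_wt libraries. The groups did not overlap, and the BRCA1_wt libraries differed among themselves far more than the BRCA1_ko libraries did. Cd44 was lower in BRCA1_ko libraries, with a log2 fold change of -2.74 ± 0.45 (adjusted p = 0.0126). The direction held without any 1 library (-3.12 to -2.23), but the adjusted p passed the threshold without BRCA1_wt library 2 or 3 only. It was 0.0610, 0.0512 and 0.0630 without BRCA1_ko library 1, 2 and 3, with values of -2.81, -2.75 and -2.67, and 0.0597 without BRCA1_wt library 1, with a value of -2.87. With libraries scaled to equal sums it was 0.0855, with a value of -2.33. For Cd44 the authors' deposited table gives a log2 coefficient of -3.54 with a q-value of 1.3e-12.

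The genes that make, cut and bind hyaluronan, and the CD44 partners at the membrane, moved in both directions. Of 13 tested genes of this list, 6 were called higher and 5 lower in untreated spheroids than in untreated monolayers, with a median log2 fold change of 0.27 against 0.01 over all genes. That is 46.2% and 38.5%, beside 27.6% and 27.7% of all genes. Spp1 (osteopontin, a secreted CD44 ligand) averaged 10902 ± 5969 scaled TPM in untreated spheroids and 130 ± 10.9 in untreated monolayers (SD), a log2 fold change of 6.17 ± 0.41 (SE). Tnfaip6, whose product crosslinks hyaluronan, was higher by 2.64 ± 0.25. Hmmr, another hyaluronan-binding protein that is used in the mitotic spindle, was lower by -3.89 ± 0.15, and Ezr, which ties CD44 to actin, by -1.91 ± 0.21. With TGFB1 4 of the 13 were called higher and 0 lower in monolayers (median 0.01 against 0.01 over all genes), and in spheroids 6 were called higher and 3 lower (median 0.33 against 0.00). Of all genes TGFB1 called 9.12% higher and 7.79% lower in monolayers, and 18.8% and 16.8% in spheroids. Has2, the main hyaluronan synthase of mesenchymal cells, averaged 76.2 ± 43.3 scaled TPM in TGFB1 spheroids and 2.69 ± 1.38 in untreated spheroids, a log2 fold change of 4.30 ± 0.38. In monolayers it averaged 10.3 ± 3.95 with TGFB1 and 0.25 ± 0.06 without, a log2 fold change of 3.12 ± 0.38. Between BRCA1_ko and BRCA1_wt libraries 2 of 13 (15.4%) were called higher and 0 lower (median 0.31 against 0.17 over all genes). Of all genes 9.04% were called higher and 5.27% lower. The called genes were Cemip, a hyaluronan-degrading protein, higher by 2.01 ± 0.33, and Has1, a hyaluronan synthase, by 1.20 ± 0.31. Cemip was lost without BRCA1_ko library 1 or 3 or BRCA1_wt library 1, Has1 without any library other than BRCA1_wt library 2, and the count was 0 to 6 higher and 0 to 1 lower without 1 library in turn. Some genes reached 1 scaled TPM in fewer than 3 libraries outside the group where they were higher. They are said here to enter the test through that group alone. Without it they would not have been tested, so their calls are given as a description. Both Cemip and Has1 were of this kind, as was Vcan, which was not called, and of the 10 tested genes that were not 0 were called by limma. In the first experiment Has3 entered through the untreated spheroids alone. Of the other 12 genes 5 were called higher and 5 lower in untreated spheroids than in untreated monolayers (median 0.09). With TGFB1 in spheroids 6 of these 12 were called higher and 2 lower (median 0.38).

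Across the 12 libraries of the first experiment, the 3 genes whose centred log2 profile lay nearest to that of Cd44 were Sdc3, Havcr2 and Pdgfa, with root mean square distances of 0.37, 0.48 and 0.55, against a median of 2.07 over all genes. Sdc3, a cell-surface heparan sulfate proteoglycan, averaged 62.5 scaled TPM in TGFB1 spheroids, 12.3 in untreated spheroids, 4.27 in TGFB1 monolayers and 0.33 in untreated monolayers. Havcr2 averaged 115, 14.0, 4.90 and 0.29 scaled TPM in the same order, and Pdgfa, a growth factor, 444, 81.1, 64.2 and 21.3. The summed level of 8 endothelial markers, of which 2 could be tested, was 26.3 to 52.4 in TGFB1 spheroids and 2.51 to 7.58 in untreated spheroids. In TGFB1 monolayers it was 1.7498 to 2.29 and in untreated monolayers 1.14 to 1.30. Of those 8 markers, 4 (Kdr, Tek, Cldn5 and Erg) were under 1 in every library of the table, and the part of the others in the Cd44 result was not tested. The summed surface epithelium markers were 284 to 514 in TGFB1 spheroids, 303 to 483 in untreated spheroids, 1277 to 1661 in TGFB1 monolayers and 2294 to 2417 in untreated monolayers, and their part in the results was not tested either. Granulosa and theca markers summed to 428 to 732 in TGFB1 spheroids, 1363 to 2328 in untreated spheroids, 108 to 211 in TGFB1 monolayers and 309 to 351 in untreated monolayers, with Fshr, Cyp19a1, Amh and Lhcgr under 1 in every library. Fibroblast markers summed to 538 to 1334 scaled TPM in TGFB1 spheroids, 369 to 530 in untreated spheroids, 962 to 1076 in TGFB1 monolayers and 1650 to 1878 in untreated monolayers, with 2 of 8 under 1 in every library. Neither list was tested for its part in the results of the spheroids.

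Cd24a (chromosome 10, 43578284 to 43584265) encodes a small, heavily glycosylated surface protein anchored by lipid. It reached 1 scaled TPM in 2 of 12 libraries of the first experiment and was not tested. It had 0, 0.033 and 0.679 scaled TPM in TGFB1 spheroids, 0.958, 1.06 and 0.631 in untreated spheroids, 1.59, 0.752 and 0.625 in TGFB1 monolayers, and 0.038, 0.189 and 0.198 in untreated monolayers. Untreated spheroids and TGFB1 monolayers both stood above the untreated monolayers without overlap, and TGFB1 spheroids overlapped with every other group. The authors' deposited table gives Cd24a log2 coefficients of 2.30 for spheroids, 2.48 for TGFB1 and -5.07 for their interaction, with a q-value of 0.0117 that covers the 3 terms together. With the Snail construct Cd24a was also low: it had 0.390, 0.430 and 0.583 scaled TPM in Snail libraries, against 0.669, 0.795 and 0.558 scaled TPM in WPI libraries, which overlapped. No BRCA1_ko or BRCA1_wt library passed 0.341. Among the relatives and receptors of CD24 and prominin, 5 genes were tested in the first experiment. Siglecg, the gene of the inhibitory CD24 receptor Siglec-G, averaged 0.20 ± 0.12 scaled TPM in untreated spheroids and 13.8 ± 1.78 in untreated monolayers, a log2 fold change of -3.63 ± 0.38. In the list 2 were called higher and 2 lower (median -0.26 against 0.01 over all genes). Siglecg was the 1 gene of 3 tested that was called in the Snail experiment, at 0.56 ± 0.10 in Snail libraries over WPI libraries (adjusted p = 0.0460). That call was lost without any library other than Snail library 3, and also without the filter and with the replicate block.

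Prom1 (prominin-1, or CD133, a protein of membrane protrusions; chromosome 5, 43993620 to 44102032) was not expressed. Its highest library had 0.351 scaled TPM among spheroids and monolayers, 0.188 among Snail and WPI libraries and 0.517 among the BRCA1 libraries. Kit (the receptor tyrosine kinase for stem cell factor; chromosome 5, 75574916 to 75656722) was not expressed either. It had 0.108, 0.129 and 0.180 scaled TPM in TGFB1 spheroids and 0.890, 0.225 and 0.160 in untreated spheroids. It was listed at 0 in all TGFB1 monolayers, and untreated monolayers had 0, 0.010 and 0.037. All spheroids thus stood above all monolayers, at values under the limit of 1 at which genes were tested. The highest Kit value was 0.262 among Snail and WPI libraries and 0.185 among BRCA1 libraries.

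The ligand of Kit was expressed. Kitl (stem cell factor) averaged 8.71 ± 4.96 scaled TPM in TGFB1 spheroids, 28.7 ± 0.69 in untreated spheroids, 33.2 ± 8.16 in TGFB1 monolayers and 49.5 ± 4.31 in untreated monolayers. It was lower in TGFB1 spheroids than in untreated spheroids by -1.73 ± 0.29 (adjusted p = 0.00119) and the difference of untreated spheroids from untreated monolayers was -0.76 ± 0.29 (adjusted p = 0.0422). The second call was lost without any 1 of its 6 libraries (-0.84 to -0.72, adjusted p up to 0.103). Of 15 tested genes of the ligand and its signal carriers, 6 were called higher and 4 lower in untreated spheroids than in untreated monolayers. That is 40% and 26.7%, beside 27.6% and 27.7% of all genes, with a median of 0.17 against 0.01. The counts were 3 to 7 higher and 2 to 3 lower without 1 library in turn. Cblb, an enzyme that tags activated receptors for breakdown, was higher by 2.20 ± 0.12. TGFB1 called 5 higher and 2 lower in both monolayers and spheroids, or 33.3% and 13.3%. Of all genes it called 9.12% higher and 7.79% lower in monolayers, and 18.8% and 16.8% in spheroids. Medians of the list were 0.17 in monolayers and 0.09 in spheroids, against 0.01 and 0.00 over all genes. With equal sums the spheroid median turned to -0.10 with 4 higher and 2 lower. Without 1 library in turn the monolayer counts were 3 to 5 higher and 0 to 1 lower, and with equal sums, without the filter or with the replicate block 0 were lower there. None of 15 genes was called in the Snail experiment, and none of 16 in the BRCA1 experiment, where without 1 library in turn the count was 0 to 11 higher and 0 to 1 lower.

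Lgr5 (a receptor for R-spondins, which strengthen WNT signals; chromosome 10, 115450311 to 115587780) was not expressed in m1102, with at most 0.139 scaled TPM in the spheroid table and 0.195 in the Snail table. In mOSE_BRCA1_fl cells it had 1.31, 1.39 and 0.883 scaled TPM in BRCA1_ko libraries, against 0.134, 0.477 and 0.384 scaled TPM in BRCA1_wt libraries. The groups did not overlap, and 2 libraries reached 1, so it was not tested. For 3 against 3 libraries the smallest two-sided p that an exact permutation test can give is 0.1. The authors' deposited table gives it a log2 coefficient of 1.64 with a q-value of 0.0469.

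Around Lgr5, 12 genes for R-spondins, their receptors and WNT feedback were tested in the BRCA1 experiment, and 4 were called higher and 0 lower in BRCA1_ko libraries (median 1.34 against 0.17 over all genes). That is 33.3% higher, where 9.04% of all genes were called higher and 5.27% lower. Lgr6, the relative of Lgr5, averaged 19.9 ± 16.1 scaled TPM in BRCA1_ko libraries and 0.10 ± 0.10 in BRCA1_wt libraries, a log2 fold change of 3.98 ± 0.50 (adjusted p = 0.00523). Fzd7, a WNT receptor, was called at 1.98 ± 0.39 (adjusted p = 0.0229) and Axin2, a feedback inhibitor that WNT signalling induces, at 1.71 ± 0.41 (adjusted p = 0.0400). Lgr6 entered the test through the BRCA1_ko libraries alone, as did 1 other of the 4 called genes, and of the 9 tested genes that did not enter through 1 group 2 were called higher (median 1.32). The Fzd7 call was lost without any BRCA1_ko library or BRCA1_wt library 1, and that of Axin2 without any library other than BRCA1_wt library 2. Without 1 library in turn 1 to 8 of the 12 were called higher and 0 to 1 lower. In m1102, of 11 tested genes, 3 were called higher and 5 lower in untreated spheroids than in untreated monolayers (median -0.25 against 0.01), among them Rspo1 by -4.43 ± 0.43, Axin2 by -2.68 ± 0.15 and Fzd7 by -1.70 ± 0.22. The 3 and 5 called genes are 27.3% and 45.5%, beside 27.6% and 27.7% of all genes. Without 1 library in turn 1 to 3 were higher and 5 to 6 lower. Tnfrsf19 entered this test through the untreated monolayers alone, and of the other 10 genes 3 were higher and 4 lower (median -0.12). Rspo3, a further R-spondin, averaged 21.3 ± 5.97 scaled TPM in TGFB1 spheroids, 1.503 ± 0.36 in untreated spheroids, 2.61 ± 0.68 in TGFB1 monolayers and 5.43 ± 0.53 in untreated monolayers. Its TGFB1 effects differed between the culture forms by 3.98 (spheroids minus monolayers) ± 0.29 (adjusted p = 1.3e-05).

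**Figure D2:**
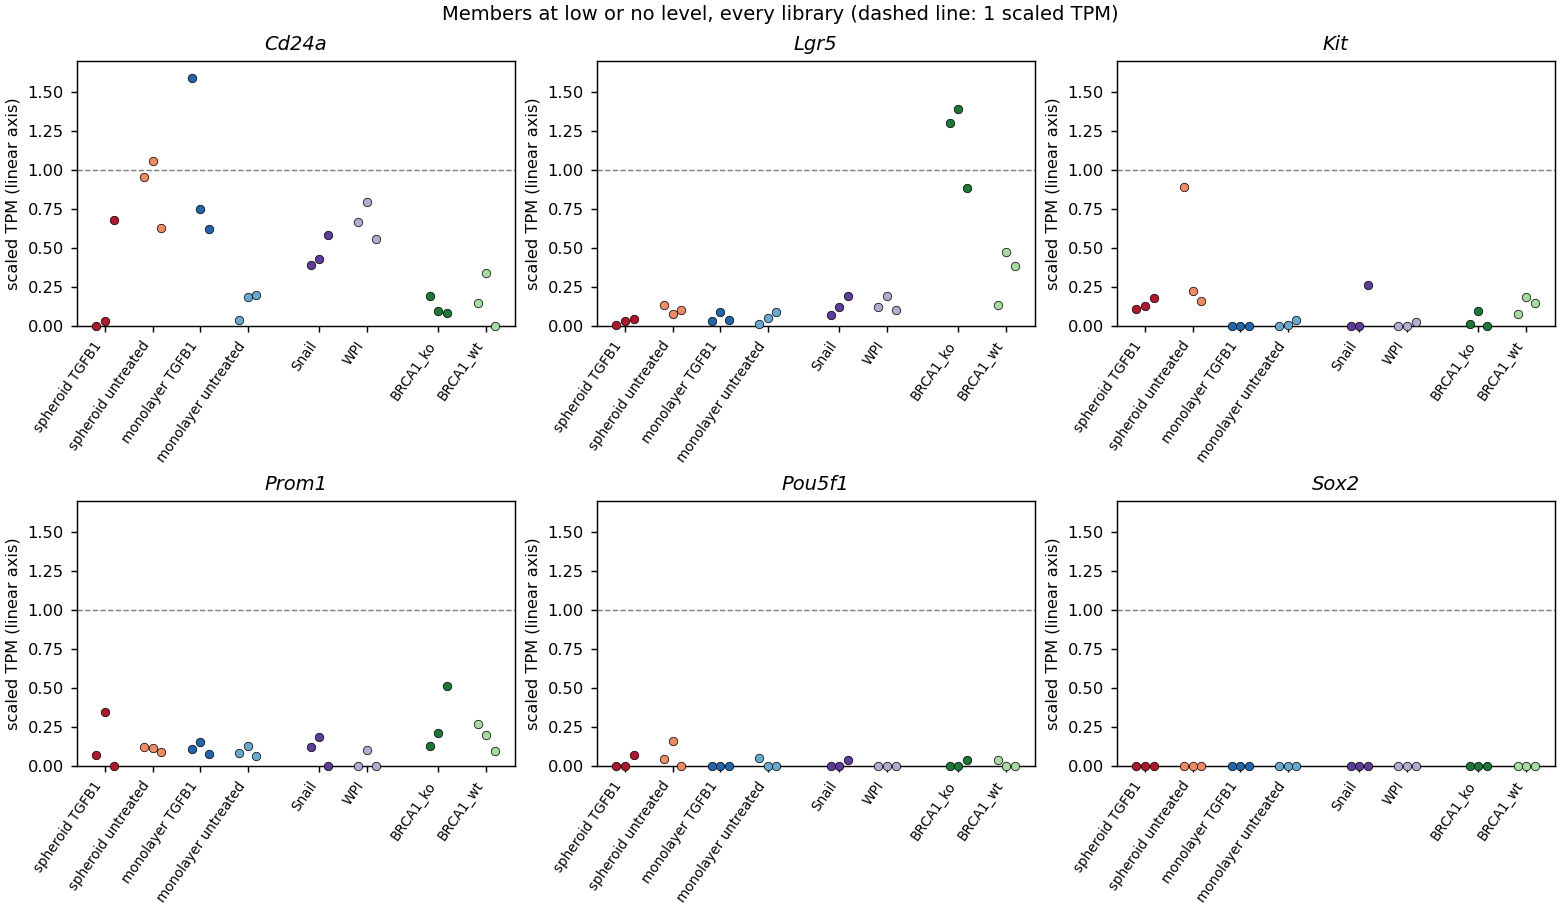
Scaled TPM (linear axis) of the 6 members at low or no level, with 1 point per library and the groups of the 3 separately normalized tables side by side. The dashed line is 1 scaled TPM; Cd24a passes it in 2 libraries of the spheroid table, Lgr5 in 2 BRCA1_ko libraries, and Sox2 is listed at 0 in all 24 libraries.

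Other adult stem and progenitor markers were largely expressed. Of 40 genes in this list, 33 were tested in the first experiment, and 14 were called higher and 8 lower in untreated spheroids than in untreated monolayers (median 0.38 against 0.01). That is 42.4% and 24.2%, beside 27.6% and 27.7% of all genes. Among the 30 that did not enter through 1 group, 12 were higher and 7 lower (median 0.37). Alcam (CD166, an adhesion protein) was higher by 3.17 ± 0.19 and Abcb1b, a drug efflux pump, by 3.01 ± 0.24. Thy1 (CD90) was lower by -3.68 ± 0.35 and Mcam (CD146) by -3.43 ± 0.23. With TGFB1 13 (39.4%) were called higher and 6 (18.2%) lower in spheroids, beside 18.8% and 16.8% of all genes (median 0.13 against 0.00). The higher genes were led by Dclk1, a kinase used to mark tuft and progenitor cells. Dclk1 averaged 48.8 ± 9.19 scaled TPM in TGFB1 spheroids and 0.69 ± 0.17 in untreated spheroids, a log2 fold change of 4.87 ± 0.20, and it entered the test through the TGFB1 spheroids alone. Among the 27 genes of the list that did not enter through 1 group, 10 were higher and 5 lower. In monolayers TGFB1 called 5 higher and 5 lower (15.2% each), beside 9.12% and 7.79% of all genes (median -0.09 against 0.01). Mcam was higher there by 2.40 ± 0.23 and Thy1 lower by -1.66 ± 0.35. There 4 were higher and 4 lower among the 30 genes that did not enter through 1 group. Of 27 tested in the BRCA1 experiment 8 (29.6%) were called higher in BRCA1_ko libraries and 0 lower (median 0.94 against 0.17). Of all genes 9.04% were called higher there and 5.27% lower. Smoc2, a secreted protein of the intestinal stem cell signature, averaged 367 ± 20.0 scaled TPM in BRCA1_ko libraries and 4.02 ± 3.78 in BRCA1_wt libraries. Of the 8 called, 4 entered the test through the BRCA1_ko libraries alone, and of the 22 tested genes that did not enter through 1 group 4 were higher and 0 lower (median 0.81). Without 1 library in turn 6 to 16 were called higher and 0 to 1 lower. Snail against WPI called 2 of 26, the tetraspanin gene Cd9 at -0.62 ± 0.07 (adjusted p = 0.0102) and the receptor kinase gene Axl at -0.28 ± 0.05 (adjusted p = 0.0495). Axl was lost without any 1 of the 6 libraries and Cd9 without Snail library 2, so that 0 to 1 were called, and 0 with the replicate block.

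Among the transcription factors, Klf4 and Myc were expressed at the highest levels. Klf4 is a zinc-finger factor that epithelial cells also use in differentiation and growth arrest. It had 23.5, 31.8 and 39.8 scaled TPM in TGFB1 spheroids, 63.7, 63.4 and 25.3 in untreated spheroids, 17.6, 19.0 and 18.6 in TGFB1 monolayers, and 38.8, 31.1 and 37.4 in untreated monolayers. The 3 TGFB1 monolayers were below all other libraries, and the untreated spheroids were split, with library 3 far below the others. In order of the means, untreated spheroids (50.8 ± 22.1), untreated monolayers (35.8 ± 4.14) and TGFB1 spheroids (31.7 ± 8.15) overlapped with their neighbours, and TGFB1 monolayers (18.4 ± 0.70) did not.

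No comparison of the first experiment called Klf4. The log2 fold change of untreated spheroids over untreated monolayers was 0.39 ± 0.30 (adjusted p = 0.305), and that of TGFB1 spheroids over TGFB1 monolayers was 0.72 ± 0.30 (adjusted p = 0.0666). With TGFB1 it was -0.58 ± 0.30 in spheroids (adjusted p = 0.162) and -0.92 ± 0.30 in monolayers (adjusted p = 0.0629). Untreated spheroid 3 decides 2 of these. Without it the spheroid difference was 0.82 (adjusted p = 0.00299) and the TGFB1 difference in spheroids was -1.01 (adjusted p = 0.00217). Without TGFB1 spheroid 1, the difference under TGFB1 was 0.92 (adjusted p = 0.0398). When the 6 monolayers alone were fitted, the TGFB1 difference in monolayers was called at the same value (adjusted p = 0.00304). For Klf4 the authors' deposited table gives a q-value of 0.0131, which covers their 3 terms together.

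Between Snail and WPI libraries Klf4 overlapped: it had 44.3, 33.8 and 27.4 scaled TPM in Snail libraries, against 72.1, 38.9 and 42.5 scaled TPM in WPI libraries, with a log2 fold change of -0.50 ± 0.25 (adjusted p = 0.421). After Cre or GFP adenovirus it had 30.9, 14.9 and 28.6 scaled TPM in BRCA1_ko libraries, against 5.60, 11.8 and 7.01 scaled TPM in BRCA1_wt libraries. The groups did not overlap, and Klf4 was higher in BRCA1_ko libraries by 1.49 ± 0.38 (adjusted p = 0.0451). This call lay at the threshold. It was kept without BRCA1_wt library 2 (adjusted p = 0.00262), and it was lost without any other library. Without BRCA1_ko libraries 1, 2 and 3 the values were 1.31, 1.81 and 1.36, and without BRCA1_wt libraries 1 and 3 they were 1.28 and 1.42, with adjusted p-values of 0.0520 to 0.184. In the authors' deposited table Klf4 has a log2 coefficient of 1.26 with a q-value of 0.0110.

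The BRCA1 experiment called 14.3% of 12775 genes, 9.04% higher and 5.27% lower, and 2 of the 4 tested members (Cd44 and Klf4). All genes together had a median log2 fold change of 0.17, and the split of 1155 higher and 673 lower became 645 and 167 with equal sums (median 0.63) and 982 and 871 with median-ratio scaling (median -0.01). Without BRCA1_wt library 2 limma called 8420 genes, and without each of the other 5 libraries 284 to 685, so every list count in this experiment moves with the libraries kept. Marker lists of other cell types also differed between the groups. Granulosa and theca markers summed to 256 to 357 scaled TPM in BRCA1_ko libraries and 91.9 to 121 in BRCA1_wt libraries. Fibroblast markers summed to 948 to 1297 in BRCA1_ko libraries and 526 to 927 in BRCA1_wt libraries, and oviductal markers to 92.4 to 111 in BRCA1_ko libraries and 173 to 310 in BRCA1_wt libraries. Of these lists 5 of 9, 0 of 8 and 6 of 8 markers were under 1 in every library, with Fshr, Cyp19a1 and Lhcgr among the granulosa and theca markers and Pax8, Foxj1 and Epcam among the oviductal ones, and their part in the results of this experiment was not tested. The Snail experiment called 1.72% of 12240 genes, 0.572% higher and 1.14% lower, and 0 of the 4 members. At an unadjusted p under 0.05 limma found 1813 genes and 0 members there, and the authors' deposited table gives the listed members q-values of 0.534 to 0.991.

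**Figure D3:**
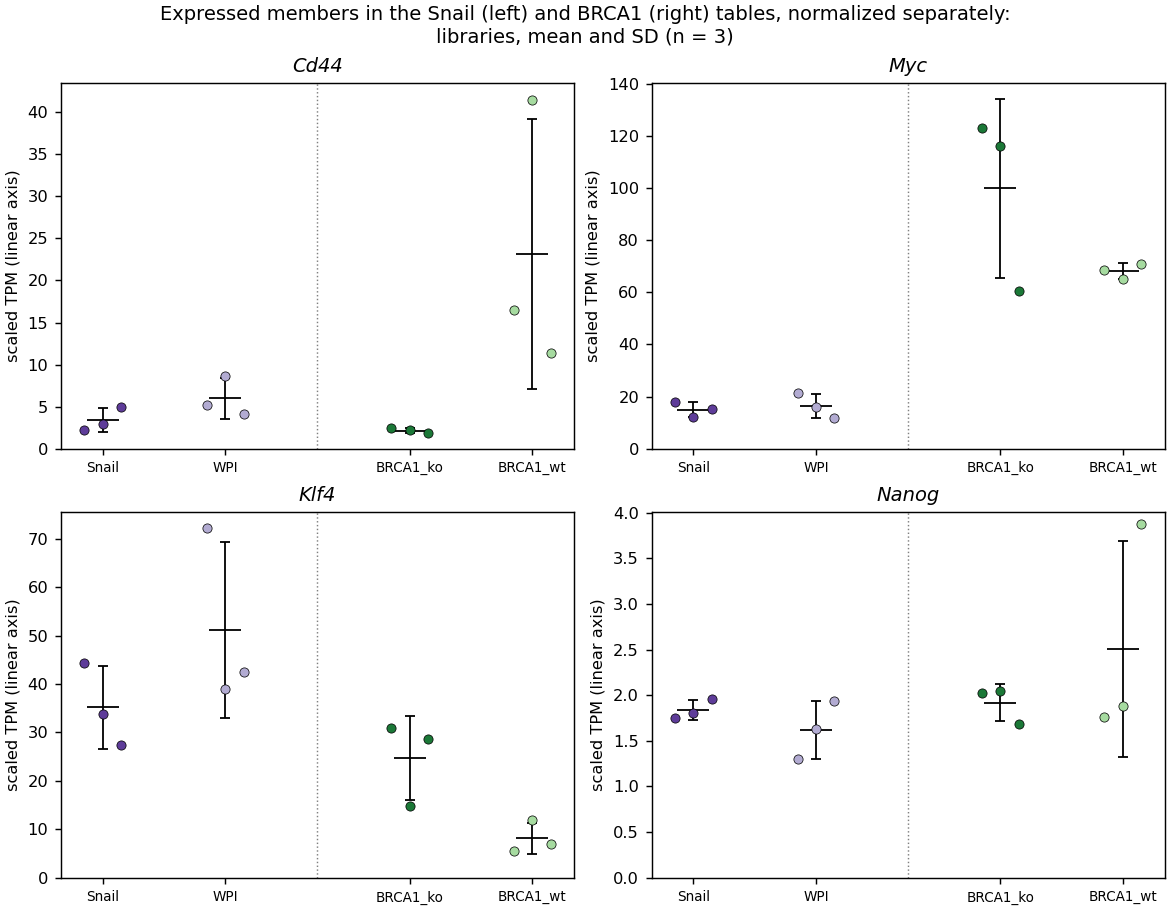
Scaled TPM (linear axes) of Cd44, Myc, Klf4 and Nanog in Snail and WPI libraries (left of the dotted line) and in BRCA1_ko and BRCA1_wt libraries (right), from 2 separately normalized tables. Points are libraries, long ticks are means and bars are SD (n = 3); BRCA1_ko libraries lie below BRCA1_wt libraries for Cd44 and above them for Klf4, and Snail and WPI libraries overlap in all 4 genes.

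The calls in the rest of the KLF family were mostly higher in spheroids than in monolayers and mixed in the other comparisons that called any. Of 11 tested relatives 6 were called higher and 1 lower in untreated spheroids than in untreated monolayers (median 0.47 against 0.01). That is 54.5% and 9.09%, beside 27.6% and 27.7% of all genes. Under TGFB1 3 were higher and 0 lower in spheroids than in monolayers (27.3% and 0%, beside 25.3% and 26.5% of all genes). Klf13 was higher by 1.92 ± 0.14 and Klf2, which endothelial and immune cells use to stay quiescent, by 1.80 ± 0.35. Klf9 was lower by -1.63 ± 0.19. Klf2 averaged 31.8 ± 20.3 scaled TPM in TGFB1 spheroids and 177 ± 24.1 in untreated spheroids, a log2 fold change of -2.62 ± 0.35, and in monolayers 19.9 ± 4.49 with TGFB1 and 49.9 ± 2.01 without, a log2 fold change of -1.31 ± 0.35 (adjusted p = 0.0269). The monolayer call was lost without any library other than TGFB1 monolayer 3 (adjusted p up to 0.107). Klf10, known as a TGF-beta inducible early gene, was called with TGFB1 in spheroids at 0.88 ± 0.26 (adjusted p = 0.0237), and the call was lost without untreated spheroid 1 or 2 or TGFB1 spheroid 1 or 2. In all, TGFB1 called 3 higher and 3 lower in spheroids (median -0.01 against 0.00; 1 higher and 4 lower with equal sums) and 1 each way in monolayers (median -0.21 against 0.01). Without 1 library in turn these counts were 0 to 3 higher and 2 to 4 lower in spheroids and 0 to 1 each way in monolayers, and a fit of the 6 spheroids called 0 higher and 2 lower. Of 10 tested in the BRCA1 experiment 1 was called in each direction (median -0.01 against 0.17, or 0.44 against 0.63 with equal sums; 0 to 5 higher and 0 to 4 lower without 1 library in turn), Klf12 at 1.04 ± 0.23 (adjusted p = 0.0327) and Klf10 at -2.10 ± 0.56 (adjusted p = 0.0497), both lost without any library other than BRCA1_wt library 2. Snail against WPI called 0 of 11. The profiles nearest to Klf4 over the 12 libraries were those of Ddit3, Cyb5r1 and Hif1a, at distances of 0.21, 0.22 and 0.24 against a median of 0.69.

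Myc, the growth-promoting partner of MAX (chromosome 15, 61985391 to 61990374), had TGFB1 effects of opposite sign in the 2 culture forms, neither of which was called alone. A test of their difference called it, though not in every fit. It had 9.34, 15.05 and 21.5 scaled TPM in TGFB1 spheroids, 33.8, 34.0 and 18.9 in untreated spheroids, 34.3, 12.8 and 10.8 in TGFB1 monolayers, and 6.95, 6.78 and 6.06 in untreated monolayers. All untreated monolayers lay below every other library, the other 3 groups overlapped, and TGFB1 monolayer 1 was more than its 2 companions together. Means were 15.3 ± 6.08, 28.9 ± 8.66, 19.3 ± 13.1 and 6.60 ± 0.47 scaled TPM in the same order.

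Myc was higher in untreated spheroids than in untreated monolayers by 1.93 ± 0.40 (adjusted p = 0.00187), and this call was kept without any 1 library (adjusted p up to 0.00921). Neither TGFB1 comparison called it: the log2 fold change was -0.90 ± 0.40 in spheroids (adjusted p = 0.103) and 1.24 ± 0.40 in monolayers (adjusted p = 0.0574). In monolayers it was 0.75 without TGFB1 monolayer 1, and without TGFB1 monolayer 3 it was called at 1.54 (adjusted p = 0.0388). Scaled to equal sums, both were called, at -1.08 in spheroids (adjusted p = 0.0479) and 1.28 in monolayers (adjusted p = 0.0463). Between TGFB1 spheroids and TGFB1 monolayers the difference was -0.21 ± 0.40 (adjusted p = 0.689), and its sign turned without TGFB1 monolayer 1 (0.28) or TGFB1 spheroid 1 (0.09).

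The difference between the TGFB1 effects was itself called for Myc, at -2.14 ± 0.57 (adjusted p = 0.0276). The direction held without each of the 12 libraries (-2.44 to -1.65). The call was lost in 6 of these cases, with adjusted p-values of 0.0558 to 0.0656: without untreated monolayer 1 (-2.17), 2 (-2.16) or 3 (-2.09), untreated spheroid 1 (-2.01) or 2 (-2.004), or TGFB1 spheroid 2 (-2.17). Untreated monolayers 1 and 2 are those whose labels cite the same earlier sample. The interaction call of limma was also lost without the filter on low values (adjusted p = 0.0625).

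Snail and WPI libraries overlapped for Myc, with 17.8, 12.1 and 15.1 scaled TPM in the 3 Snail libraries, against 21.3, 16.2 and 11.9 scaled TPM in WPI libraries, with a log2 fold change of -0.11 ± 0.21 (adjusted p = 0.882). In mOSE_BRCA1_fl cells it had 123, 116 and 60.4 scaled TPM in BRCA1_ko libraries, against 68.6, 65.1 and 70.9 scaled TPM in BRCA1_wt libraries. BRCA1_ko library 3 lay below all BRCA1_wt libraries and the other BRCA1_ko libraries above them, and the log2 fold change was 0.48 ± 0.31 (adjusted p = 0.255).

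The known targets of MYC in ribosome biogenesis and growth were all tested, 40 of 40. In untreated spheroids 2 were called higher and 18 lower than in untreated monolayers, with a median log2 fold change of -0.29 against 0.01 over all genes, while Myc itself was higher there. Under TGFB1 2 were higher and 26 lower in spheroids (median -0.55 against 0.00). Without 1 library in turn these counts were 2 to 3 higher and 12 to 19 lower untreated, and 0 to 3 higher and 19 to 26 lower under TGFB1. Cdk4, a cell cycle kinase, averaged 263 ± 13.5 scaled TPM in untreated spheroids and 699 ± 23.6 in untreated monolayers, a log2 fold change of -1.41 ± 0.08. Tfrc, the transferrin receptor, was lower by -1.74 ± 0.29, and Ldha, the lactate dehydrogenase of glycolysis, was higher by 0.82 ± 0.17. TGFB1 in monolayers called 0 of the 40 by limma (median 0.05 against 0.01), where 16.9% of all genes were called, and in spheroids 2 higher and 6 lower (median -0.06). Between BRCA1_ko and BRCA1_wt libraries 0 were higher and 5 lower (median -0.55 against 0.17). With equal sums 0 were called there and the median was -0.02 against 0.63, and without 1 library in turn 0 to 21 were lower and 0 to 4 higher. Snail against WPI called 1, Tfrc, at -0.45 ± 0.05 (adjusted p = 0.00685), which was lost without Snail library 2 (adjusted p = 0.0522) and with the replicate block.

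Among the MAX partners and the MYC family, Mycn was lower in untreated spheroids than in untreated monolayers by -1.87 ± 0.26, averaging 6.72 ± 3.84 scaled TPM against 25.4 ± 3.66. Mxd3, a MAX partner of dividing cells, was lower by -3.06 ± 0.15 and Mxi1, a MAX partner that opposes MYC, higher by 1.49 ± 0.13. Of 12 tested, 3 were called in each direction there (median 0.03 against 0.01). TGFB1 called 1 higher and 1 lower in spheroids (0 to 2 each way without 1 library in turn) and 1 higher in monolayers (0 to 1). In BRCA1_ko libraries Max itself was called at 1.56 ± 0.28 (adjusted p = 0.0170) and Mxd3, which entered the test through the BRCA1_wt libraries alone, at -2.82 ± 0.58 (adjusted p = 0.0271), each lost without 4 of the 6 libraries. In all, 2 of 13 were called higher and 1 lower (median 0.75 against 0.17), and 0 to 11 higher and 0 to 2 lower without 1 library in turn. The Snail experiment called 0 of 12. Nearest in profile to Myc were Hyal1, Pgf and Foxs1, at distances of 0.33, 0.36 and 0.36 against a median of 0.90. Hyal1, a hyaluronidase of the list around Cd44, averaged 7.09 scaled TPM in TGFB1 spheroids, 14.3 in untreated spheroids, 11.6 in TGFB1 monolayers and 2.86 in untreated monolayers.

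**Figure D4:**
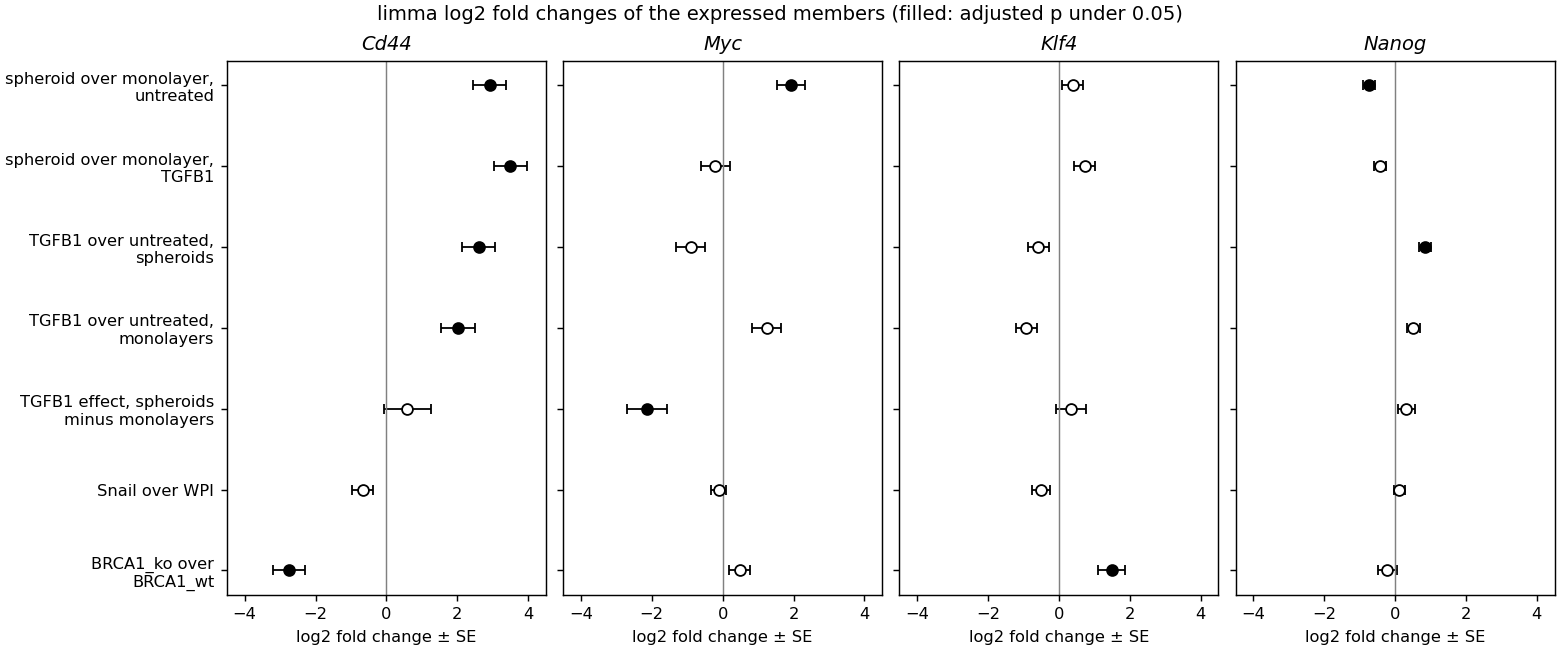
Log2 fold changes with SE (limma, log2 of scaled TPM + 1) of the 4 tested members in the 6 pairwise comparisons and in the TGFB1-by-culture difference. Filled points passed an adjusted p of 0.05; Cd44 is filled in all comparisons but the difference of TGFB1 effects and the Snail experiment, and the Myc point of that difference is at -2.14.

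**Figure D5:**
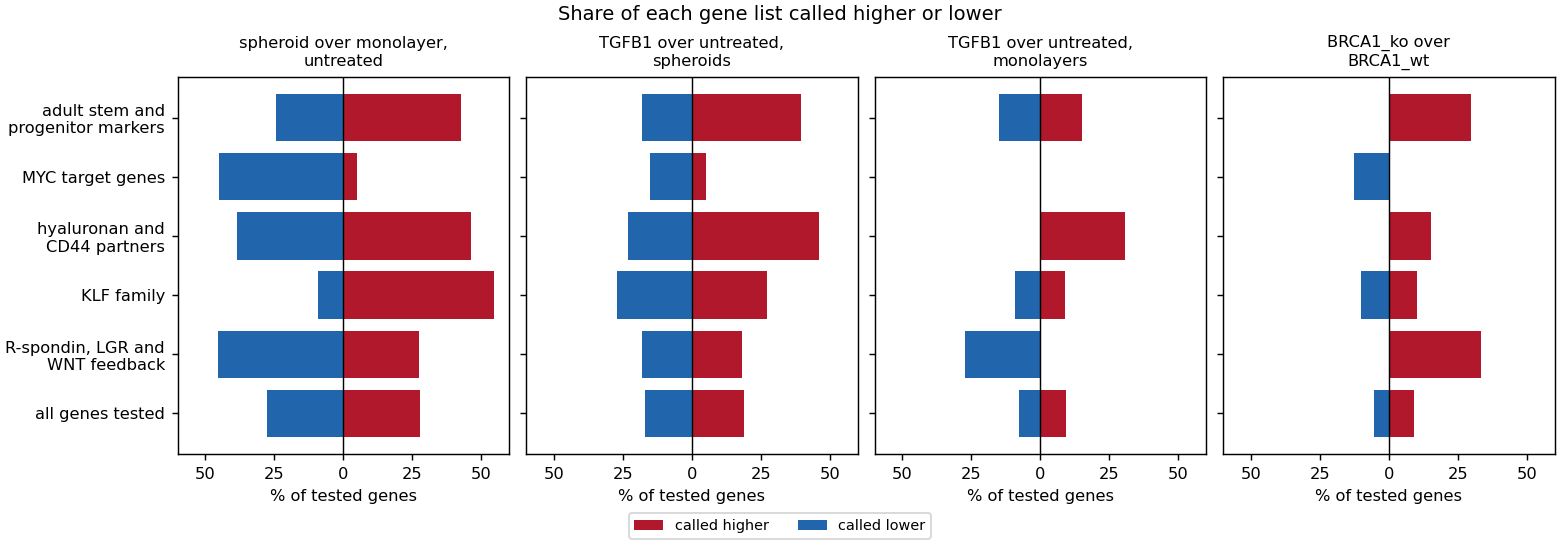
Share of the tested genes of 5 lists, and of all genes tested, that limma called higher (right of 0) or lower (left of 0) in 4 comparisons. For MYC target genes 18 of 40 were lower and 2 higher in untreated spheroids than in untreated monolayers, against 27.7% and 27.6% of all genes.

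Nanog (chromosome 6, 122707489 to 122714633), a homeodomain factor of the pluripotent state, was listed at low values. It had 1.99, 0.983 and 1.29 scaled TPM in TGFB1 spheroids, 0.344, 0.222 and 0.451 in untreated spheroids, 2.33, 2.25 and 1.97 in TGFB1 monolayers, and 1.28, 1.41 and 0.998 in untreated monolayers. Untreated spheroids lay below every other library. TGFB1 monolayers lay above both untreated groups and overlapped with TGFB1 spheroids, and TGFB1 spheroids overlapped with untreated monolayers. The pseudogenes Nanog-ps1 and Nanog-ps2, listed separately, were at 0 in all 24 libraries, and how reads were shared between Nanog and further copies was not tested.

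Nanog was lower in untreated spheroids than in untreated monolayers by -0.73 ± 0.17 (adjusted p = 0.00386) and higher with TGFB1 in spheroids by 0.84 ± 0.17 (adjusted p = 0.00359). Both depend in size on the pseudocount: with 0.1 in place of 1 they were -1.62 and 1.77. Both calls were kept without any 1 library, with adjusted p-values up to 0.0178 and 0.0163. In monolayers the TGFB1 difference was 0.52 ± 0.17 (adjusted p = 0.0623), and between TGFB1 spheroids and TGFB1 monolayers the difference was -0.41 ± 0.17 (adjusted p = 0.0629), which was called at -0.58 without TGFB1 spheroid 1 (adjusted p = 0.0112). Nanog under Snail had 1.747, 1.81 and 1.96 scaled TPM in Snail libraries, against 1.30, 1.62 and 1.94 scaled TPM in WPI libraries (log2 fold change 0.12 ± 0.15, adjusted p = 0.793). In mOSE_BRCA1_fl cells Nanog had 2.02, 2.05 and 1.69 scaled TPM in BRCA1_ko libraries, against 1.77, 1.89 and 3.88 scaled TPM in BRCA1_wt libraries (log2 fold change -0.22 ± 0.27, adjusted p = 0.553).

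The partners of Nanog in the core circuit were missing. Sox2 (chromosome 3, 34650405 to 34652461) was listed at 0 in all 24 libraries. Pou5f1 (chromosome 17, 35506018 to 35510772) had at most 0.163 scaled TPM, in an untreated spheroid, and at most 0.043 among Snail and WPI libraries and 0.042 among BRCA1 libraries. The wider pluripotency network was mostly under the limit too: of 35 further genes matched in each table, 5 were tested in the first experiment, 3 in the Snail experiment and 6 in the BRCA1 experiment.

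Of the 5 tested in the first experiment 2 were called higher and 2 lower in untreated spheroids than in untreated monolayers. Tet1, an enzyme that oxidizes methylated DNA, averaged 3.19 ± 0.58 scaled TPM in untreated spheroids and 0.10 ± 0.07 in untreated monolayers, a log2 fold change of 1.92 ± 0.21, and Dnmt3l, a DNA methylation cofactor, was higher by 1.54 ± 0.43. Both reached 1 scaled TPM in fewer than 3 libraries outside the untreated spheroids, so their calls are given as a description. Tfcp2l1, a factor of naive pluripotency that some epithelia also express, averaged 3.84 ± 0.45 scaled TPM in untreated spheroids and 24.8 ± 2.71 in untreated monolayers, a log2 fold change of -2.41 ± 0.25. Fgf5, a marker of the primed state, was lower in untreated spheroids by -2.26 ± 0.47. With TGFB1 Fgf5 was higher in spheroids, by 2.57 ± 0.47 (adjusted p = 0.00189). In monolayers the log2 fold change was 1.60 ± 0.47 (adjusted p = 0.0389), a call that was lost without any 1 of its 6 libraries (1.37 to 1.78, adjusted p up to 0.142), with a pseudocount of 0.1, without the filter and with the replicate block. Of 6 tested in the BRCA1 experiment 1 was called (1 to 6 without 1 library in turn): Sall1 averaged 13.4 ± 4.56 scaled TPM in BRCA1_ko libraries and 0.21 ± 0.05 in BRCA1_wt libraries, a log2 fold change of 3.52 ± 0.27 (adjusted p = 0.00146). Sall1 entered the test through the BRCA1_ko libraries alone, and of the 3 tested genes of the list that did not enter through 1 group 0 were called by limma. Snail against WPI called 0 of 3. The profiles nearest to Nanog over the 12 libraries of the first experiment were those of Pcdhb17, Mrip-ps and Trim62, at distances of 0.14, 0.15 and 0.16 against a median of 0.59.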

How the data were processed

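Poly(A) RNA-seq of 24 mouse libraries was analysed from tables deposited per experiment. The submitters' processing notes name kallisto 0.44.0, sleuth 0.30.0 and GRCm38. The deposited signal, named TPM by the authors and called scaled TPM here, sums to 796668 to 1810667 per library rather than to a fixed total, so a factor per library is present. Reads were not used, and depth is unknown. For each gene the authors also deposited a q-value with its p-value, and coefficients as natural log values, converted here to log2. In the spheroid table the deposited q-value covers 3 terms at once.

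Genes with at least 1 scaled TPM in at least 3 libraries of a table were tested with limma 3.58.1 (R 4.3.3; lmFit, eBayes with trend) on log2(scaled TPM + 1), two-sided, with Benjamini-Hochberg adjustment over all genes of a comparison and a threshold of 0.05. The test was planned for plain TPM and kept. It was also run on simulated data with independent normal noise and libraries that were alike. Such data cannot show how it behaves with uneven libraries like those of BRCA1_wt. The 12 spheroid and monolayer libraries shared a fit. The comparisons share groups, so their results are not independent. Tables were read with Python 3.11.15, pandas 2.3.3 and numpy 2.4.6 and plotted with matplotlib 3.10.9. Coordinates are from GENCODE M21 (GRCm38), and promoters from RefSeq, which gave one for 7 of the 10 members.

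The members and the gene lists were chosen with earlier results of these data known. Named beside the members are up to 3 called genes per list and direction, by size of change, and the 3 nearest profiles of each tested member. From these, examples are given. Gene lists hold no member, though the germ cell markers include Kit, and counts are over list genes found under 1 identifier. Some genes, such as Lgr6 and Tert, are in more than 1 gene list. Counts without genes that reached 1 scaled TPM in fewer than 3 libraries outside the group where they were higher were added after the data were seen. Alternatives were another pseudocount, no filter, other scalings, library weights, a replicate block, 6-library fits and leaving out each library.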

Additional observations from a re-analysis of the deposited data

Results flagged for a closer look

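Myc was flagged because the effect of TGFB1 differed between the culture forms by a test of the difference itself. Culture form and the timing of TGFB1 cannot be told apart in that test. Subtracting the monolayer effect from the spheroid effect gave -2.14 on the log2 scale (limma interaction, adjusted p = 0.0276), from -0.90 ± 0.40 in spheroids and 1.24 ± 0.40 in monolayers, neither of which was called alone. All 3 TGFB1 monolayers were above all untreated monolayers, and 2 of 3 TGFB1 spheroids were below all untreated spheroids. The interaction call was lost in 6 of the 12 fits without 1 library, and in the fit without the filter.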

How the results depend on the processing

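Of 376 alternative values of the 28 member results, 326 kept direction and side of the threshold, 21 lost and 20 gained a call, and 9 turned sign. The cause of these changes was not tested. They include a sign turn of Nanog and a gained call of Myc in the BRCA1 fit with library weights, which are not to be read. Members called: without a filter 5 between untreated spheroids and monolayers (with Kit and Cd24a), 2 under TGFB1 and 1 for BRCA1. With equal sums 2 for TGFB1 in monolayers, 2 for spheroids under TGFB1 and 0 for BRCA1. With library weights 4, 4 and 3 for TGFB1 in monolayers, TGFB1 in spheroids and spheroids under TGFB1. In fits of 6 libraries 3 for TGFB1 in monolayers and 2 for spheroids under TGFB1. Without 1 library 0 to 2 for TGFB1 in monolayers, 1 to 3 for spheroids under TGFB1, 0 to 1 for the interaction and 0 to 2 for BRCA1.

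Genes called: with library weights 6431 for TGFB1 in monolayers, 4385 for the interaction and 11536 for BRCA1, against 2284, 2138 and 1828. The BRCA1 weights did not converge, so values with weights there are not to be read. In fits of 6 libraries 3585 for TGFB1 in monolayers and 2769 in spheroids (against 4810). Without a filter 54 for Snail and 1091 for BRCA1, and with equal sums 812 for BRCA1. Without 1 library 1234 to 1751 for TGFB1 in monolayers, 1402 to 2741 for the interaction, 23 to 75 for Snail (against 210; fewest without Snail library 2) and 284 to 8420 for BRCA1, the highest without BRCA1_wt library 2.

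Sign changes of values that were not called: Myc between TGFB1 spheroids and monolayers 0.35 with weights and -0.51 to 0.28 without 1 library, Klf4 interaction -0.095 to 0.56, Myc under Snail -0.31 to 0.088 (0.031 without Snail library 2), and Nanog under BRCA1 0.16 with equal sums, 0.11 with weights and -0.36 to 0.045 without 1 library.

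Same-numbered libraries were compared by their deviations from group means. Their r was -0.32 to 0.19 in the spheroid table, -0.08 to 0.33 for Snail and -0.17 to -0.05 for BRCA1. Libraries of other numbers had r = -0.31 to 0.37, -0.21 to 0.25 and -0.19 to 0.21. With 3 libraries per group this cannot decide whether the numbers pair libraries. With the replicate block 16 genes were called for Snail and 433 for BRCA1, where 1 member (Cd44) was called.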
